A study of Homo sapiens with 40 samples.

Results

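The 9 genes described here encode proteins that take up, convert, bind, break down or respond to vitamin A and its active form, retinoic acid: STRA6, RDH10, DHRS3, DHRS9, CRABP2, CYP26B1, RARA, RARB and RARG. They were selected by gene symbol from a list chosen with results of these same libraries in view, with no threshold, so their levels and fold-changes are a description of the list and no independent support for any pattern in it. Each of the 9 symbols matched exactly 1 of the 60708 genes counted in the 24 RNA-seq libraries. The libraries formed 8 groups of 3, all from established human breast cell lines. MI-spheres were 3D cultures of MCF-10A, a non-tumorigenic mammary epithelial line, and MII-spheres were 3D cultures of its HRAS-transformed derivative MCF-10AneoT, both grown in ultra-low attachment plates and either left unstimulated (Ctrl) or stimulated with 2.5 ng/ml TGFβ1 for 16 h (TGFβ). The other 4 groups were 2D cultures of the triple-negative breast cancer line MDA-MB-231 in medium with fetal bovine serum: parental cells (WT), cells edited with CRISPR/Cas9 at exon 1 of SNAI2, the gene of SLUG (SLUG KO), and cells transfected with a control siRNA (Csi) or with siRNAs to SMAD2, SMAD3 and SMAD4 (siSMAD2/3/4). SLUG KO cells came from expanded single-cell colonies, and the number of colonies behind the 3 libraries is not given in the sources used here. No MDA-MB-231 library was stimulated with TGFβ. The replicates are separate samples on the labels, which do not say whether they were separate cultures, so the errors below measure the spread between these libraries.

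Retinol circulates bound to a carrier protein and enters cells through receptors such as STRA6. Inside the cell it is oxidised to retinal and then, by retinaldehyde dehydrogenases, to retinoic acid, while reductases can turn retinal back into retinol. Retinoic acid moves with small binding proteins to the nucleus, where a retinoic acid receptor (RAR) paired with a retinoid X receptor (RXR) sits on response elements of target genes, and enzymes of the CYP26 family limit the signal by oxidising retinoic acid. In mammary epithelium retinoic acid is known as a differentiating and growth-restraining signal.

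Total counts ranged from 14124688 to 38406952 per library. Levels are given in CPM, counts scaled to a common library size. Across genes, Pearson's r between log2 CPM of libraries of 1 group was 0.984 to 0.994 in 7 groups. In the WT group it was 0.957 and 0.952 for the pairs with WT replicate 2, which stands apart, and 0.989 for the remaining pair. SMAD2, SMAD3 and SMAD4 were lower in siSMAD2/3/4 than in Csi libraries, with log2 fold-changes of -1.92 ± 0.052, -0.69 ± 0.041 and -1.72 ± 0.062 (SE), and HRAS was higher in MII- than in MI-spheres by 2.45 ± 0.044. SNAI2 was not lower in the libraries labelled SLUG KO. Its RNA was 61.8 ± 3.93 CPM there against 27.7 ± 6.84 CPM in WT (mean ± SD, n = 3), and a small CRISPR edit need not lower the RNA, so these counts cannot check the knockout. Basal keratins and TP63 summed to between 356.6 and 3158.4 CPM in sphere libraries and to at most 7.0 CPM in MDA-MB-231 libraries, the luminal list to between 1190.5 and 3145.2 CPM in all libraries, and E-cadherin (CDH1) stood at 509.1 CPM or more in spheres and at 19.2 CPM or less in MDA-MB-231. Within the luminal list, group means of KRT19 were 3.22 to 11.2 CPM in spheres and 317.9 to 578.8 CPM in MDA-MB-231. Those of EPCAM went the other way, at 62.0 to 295.4 CPM and 15.0 to 20.3 CPM. The mesenchymal list summed to 22.7 CPM or less in spheres and to 609.0 CPM or more in MDA-MB-231, with VIM at 10.7 CPM or less and at 544.5 CPM or more. The hormone and HER2 receptor list summed to 71.1 CPM or more, with ESR1 at 8.17 CPM or less. The fibroblast list reached 73.4 CPM, the endothelial list 117.9 CPM, and both blood markers together 0.767 CPM. The siSMAD2/3/4 and Csi libraries carry another batch label than the other 18 libraries, and siSMAD2/3/4 replicates 1 and 2 were run on another flow cell than the 4 remaining siRNA libraries.

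Promoter windows of RefSeq (GRCh38.p14, from 250 bases before to 50 after a gene start) were read for 8 of the 9 genes, with RDH10 not matched. They are shown because TGFβ, SMAD2/3/4 and SLUG are the factors perturbed here and because RARB is a textbook target of its own ligand. Retinoic acid response elements were searched on both strands as 2 half-sites in the same direction, each spelled AGGTCA or else GGGTCA, or in a further variant AGTTCA or else GGTTCA, spaced by 5 or 2 bases. Only 31 of 34943 windows (0.0887%) held such a repeat spaced by 5, and 1 of them was a window of RARB, 53 bases before a gene start at chr3:25428204-25428232 on the plus strand. Repeats spaced by 2 were in 0.0372% of all windows and in none of these 8 genes. The E-box CAGGTG, which SLUG binds, was in 20.6% of all windows and in 5 of the 22 windows of these genes, which belong to STRA6, DHRS3, CRABP2 and RARB. The SMAD box GTCTG was in 45.3% of all windows and in 11 of the 22, which belong to STRA6, DHRS3, DHRS9, RARA and RARB. Both shares are near those of all windows. The sites upstream of a start are given below 5′ to 3′ on the strand of the gene, with the repeat or E-box in capitals, the latter on the opposite strand in DHRS3, and with only 6 flanking bases where the site lies in an exon of some transcript. A match is a description of letters and not a site of binding.
RARB, repeat spaced by 5, chr3:25428204-25428232: gggtagGGTTCACCGAAAGTTCActcgca
RARB, E-box, chr3:25340669-25340718: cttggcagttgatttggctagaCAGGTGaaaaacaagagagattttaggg
CRABP2, E-box, chr1:156705943-156705992: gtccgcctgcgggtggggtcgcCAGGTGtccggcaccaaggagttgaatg
DHRS3, E-box, chr1:12596810-12596859: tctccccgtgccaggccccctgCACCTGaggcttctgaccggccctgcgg
STRA6, E-box, chr15:74202976-74202993: tgaagtCAGGTGcggggg

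The deposited counts ignored strand, which touches 3 of the 9 genes. On GRCh38, RARA (chr17:40309180-40357643, plus strand) shares 21.4% of its exon bases with 3 antisense genes, STRA6 (chr15:74179466-74212267, minus strand) 6.8% with CCDC33, and RDH10 (chr8:73294602-73325281, plus strand) 5.2% with RDH10-AS1. Fragments on such bases could not be assigned to 1 gene and were left out, and their strand cannot be told from the counts. The exons of DHRS3 (chr1:12567910-12618210), DHRS9 (chr2:169064789-169096167), CRABP2 (chr1:156699606-156705816), CYP26B1 (chr2:72129238-72147862), RARB (chr3:25174332-25597932) and RARG (chr12:53210567-53232980) share no bases with another gene.

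STRA6, RDH10, DHRS3, DHRS9, CRABP2 and RARG were higher in every sphere library than in any MDA-MB-231 library, whereas CYP26B1, RARA and RARB overlapped. Cell line, 2D or 3D growth and medium change together between these sets, and for the siRNA libraries also the batch. Levels across them are therefore given without a test. By the paper's methods, fetal bovine serum was added to all media except those of MI and MII cells. DHRS3, a reductase that turns retinal into retinol, was at 453.7 to 618.8 CPM in the 12 sphere libraries and at 3.63 to 16.1 CPM in the 12 MDA-MB-231 libraries. DHRS9, a short-chain dehydrogenase that acts on retinol, reached 432.8 CPM in unstimulated MII-spheres and did not exceed 1.11 CPM in any MDA-MB-231 library. RDH10, the main enzyme oxidising retinol to retinal, ranged from 72.5 to 312.6 CPM in spheres and from 4.04 to 11.3 CPM in MDA-MB-231. CRABP2, which carries retinoic acid to its nuclear receptors, ranged from 55.0 to 241.6 CPM in spheres and from 2.46 to 6.38 CPM in MDA-MB-231. In contrast, CYP26B1, which breaks down retinoic acid, stood at 7.57 to 24.1 CPM in spheres and at 4.77 to 18.8 CPM in MDA-MB-231, so the ranges overlapped. RARA overlapped as well, at 4.13 to 16.0 CPM in spheres and 5.84 to 30.9 CPM in MDA-MB-231, with its highest levels in the siRNA libraries. RARB was the lowest receptor per kilobase of exon in every group, and its 24 values lay between 0.898 and 2.58 CPM in spheres and between 0.159 and 1.41 CPM in MDA-MB-231, from 4 to 63 counts.

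**Figure D1:**
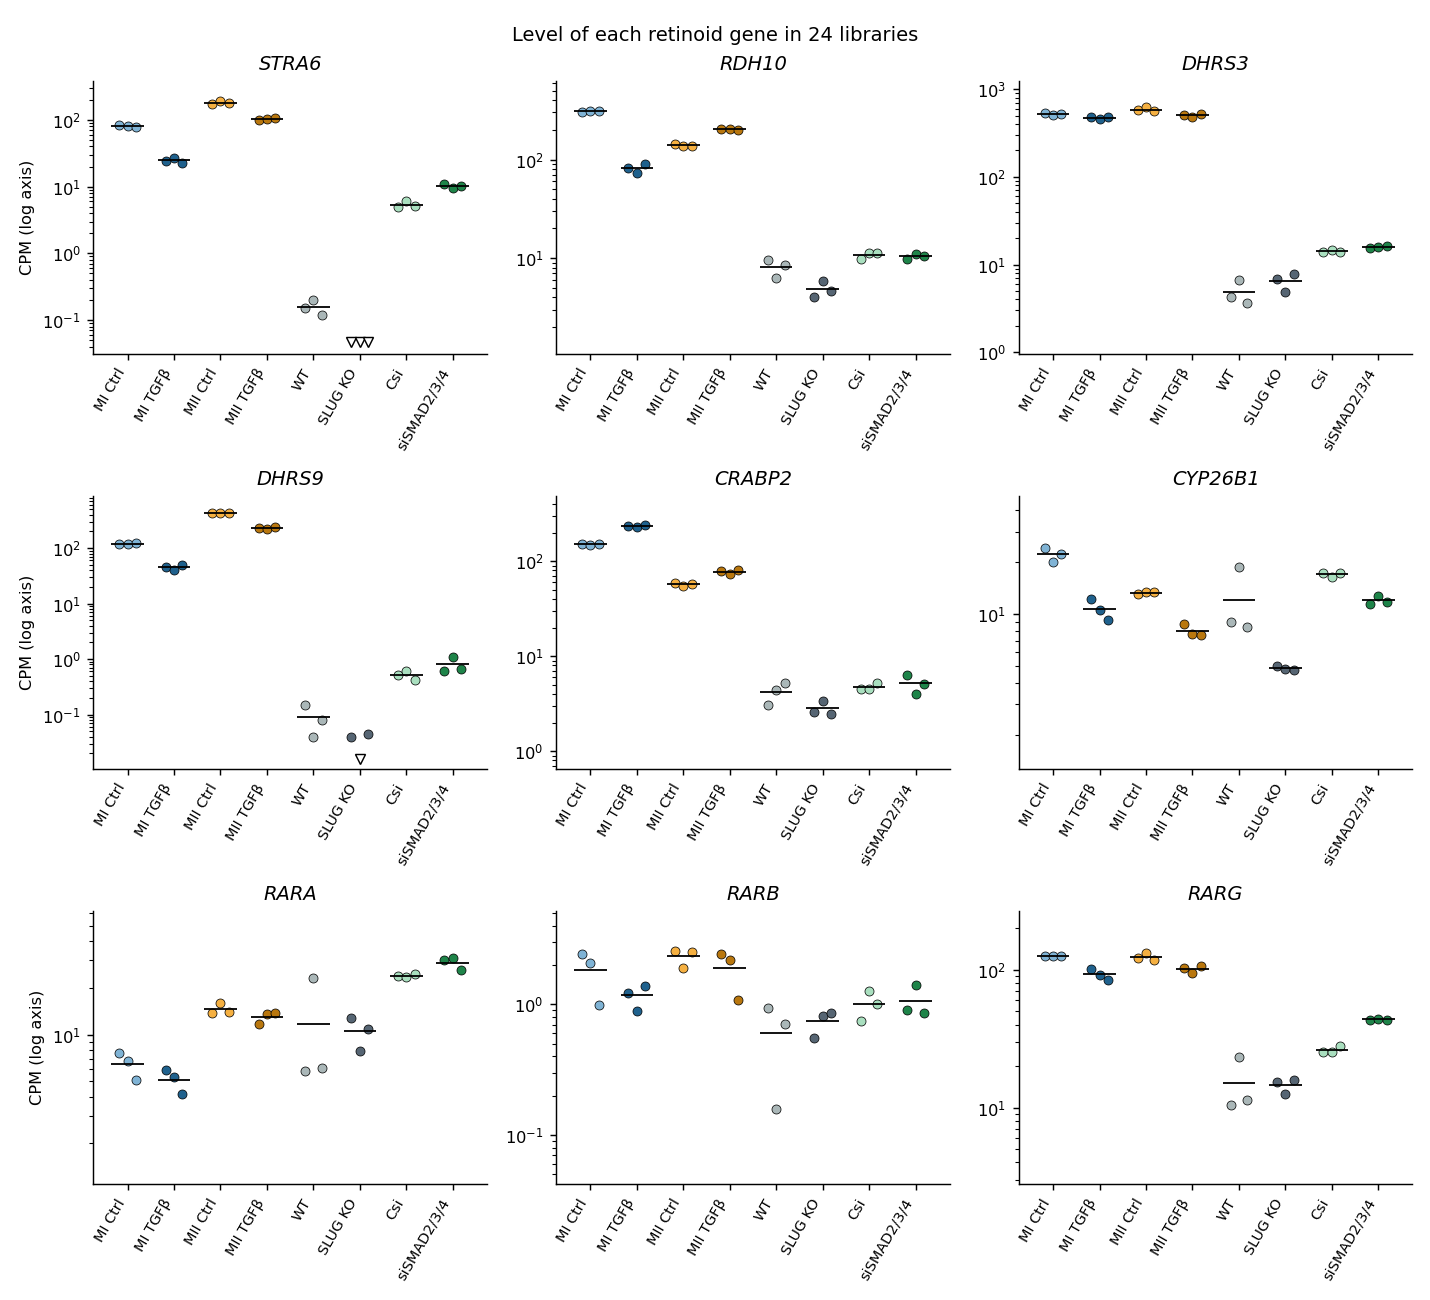
Level of each of the 9 genes in CPM (log axis, scaled by TMM over all 24 libraries) by group. Each point is a library, lines are means of 3 libraries and open triangles mark a count of 0. RDH10 fell from 308.4 to 81.9 CPM with TGFβ in MI-spheres and rose from 138.9 to 202.6 CPM in MII-spheres.

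In the order of group means, STRA6, the membrane receptor for retinol, gave levels whose neighbours did not overlap from MII Ctrl down to WT. MII Ctrl was highest at 182.1 ± 8.21 CPM (SD, n = 3), followed by MII TGFβ, MI Ctrl, MI TGFβ, siSMAD2/3/4, Csi and WT. SLUG KO came last with 0 counts in all 3 libraries, which allows a level of up to 0.121 to 0.143 CPM per library. WT libraries held 4, 5 and 3 STRA6 counts, too few for a test, with a lowest level of 0.118 CPM, so WT and SLUG KO are not shown to differ. For RDH10, neighbours in the order MI Ctrl, MII TGFβ, MII Ctrl, MI TGFβ did not overlap, and below them Csi and siSMAD2/3/4 did. For RARB every neighbouring pair of groups overlapped.

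TGFβ lowered 7 of the 9 genes and raised 1 in MI-spheres, and lowered 5 and raised 2 in MII-spheres. STRA6, DHRS9 and CYP26B1 fell and CRABP2 rose in both lines, whereas RDH10 fell in MI- and rose in MII-spheres. Genes were called at an adjusted p under 0.05 in edgeR's quasi-likelihood test over all genes tested, and DEGs also had an absolute log2 fold-change above 1. Among all genes tested, 28.7% were called higher and 27.4% lower in MI-spheres, and 29.9% higher and 27.6% lower in MII-spheres. The median log2 fold-change of the 9 genes was -0.69 in MI- and -0.29 in MII-spheres, against -0.02 over all genes tested in either line. Marker lists moved in the same comparisons, and their part in the changes below was not tested. With TGFβ the basal sum went from at most 1457.4 to at least 2882.8 CPM in MI- and from at most 360.9 to at least 1383.2 CPM in MII-spheres. The mesenchymal sum went from at most 4.86 to at least 13.3 CPM and from at most 11.4 to at least 20.8 CPM, and the luminal sum from at most 1274.5 to at least 1459.0 CPM and from at most 2516.9 to at least 2960.9 CPM. The endothelial sum went from at least 30.2 to at most 13.5 CPM in MI- and from at least 113.7 to at most 107.2 CPM in MII-spheres, and the fibroblast sum from at most 21.8 to at least 36.3 CPM in MI- and from at least 8.87 to at most 5.04 CPM in MII-spheres. In MI-spheres the endothelial change was that of CDH5, from 22.2 to 2.12 CPM on average, with PECAM1 at 9.78 and 10.1 CPM. In MII-spheres the luminal marker GATA3 went from 30.3 to 23.1 CPM on average, while the other luminal markers rose. In bulk RNA, fewer cells expressing a gene and less RNA per cell cannot be told apart. RDH10, STRA6, DHRS9 and CYP26B1 were DEGs in MI-spheres, and none of the 9 was a DEG in MII-spheres, where 13.6% and 10.6% of all genes tested were DEGs in MI- and MII-spheres. These DEG calls rest on levels scaled by TMM.

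Among the 9 genes, the responses of the lines differed most for RDH10. Its level was 303.1, 312.6 and 309.5 CPM in unstimulated and 82.7, 72.5 and 90.5 CPM in stimulated MI-spheres, groups that lie far apart. The log2 fold-change was -1.94 ± 0.060 (SE, edgeR adjusted p = 1.88e-16), a fall by a factor of 3.85. In MII-spheres RDH10 was at 143.1, 136.0 and 137.6 CPM without and 204.1, 204.0 and 199.6 CPM with TGFβ. Every stimulated MII library was above every unstimulated one, with a log2 fold-change of 0.52 ± 0.040 (edgeR adjusted p = 3.04e-16). The interaction of line and TGFβ, the MII response minus the MI response in 1 fit of the 12 sphere libraries, was 2.47 ± 0.073 (edgeR adjusted p = 1.24e-25). After stimulation RDH10 was thus higher in MII- than in MI-spheres, the opposite of the order without TGFβ.

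STRA6 fell from 84.0, 81.0 and 77.9 CPM to 24.5, 27.3 and 22.8 CPM in MI-spheres. In MII-spheres it fell from 176.3, 191.5 and 178.6 CPM to 103.5 ± 3.41 CPM (SD, n = 3), with a lowest value of 100.2 CPM. Stimulated MII-spheres therefore kept more STRA6 RNA than unstimulated MI-spheres had. The log2 fold-changes were -1.73 ± 0.074 in MI- and -0.84 ± 0.042 in MII-spheres (edgeR adjusted p = 3.53e-14 and 1.21e-23), and the responses differed by 0.90 ± 0.083 (edgeR adjusted p = 3.97e-11).

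DHRS9 fell from 120.9 ± 2.64 CPM (SD, n = 3, lowest 118.2 CPM) to 45.9, 39.6 and 50.6 CPM in MI-spheres. It fell from 428.2, 432.8 and 424.4 CPM to 228.2, 224.0 and 236.5 CPM in MII-spheres. No library of 1 condition overlapped the other in either line. The log2 fold-changes were -1.45 ± 0.065 and -0.93 ± 0.036 (edgeR adjusted p = 1.01e-13 and 1.42e-28), and their difference was 0.53 ± 0.074 (edgeR adjusted p = 5.33e-07). DHRS3, the reductase acting in the reverse direction, changed little in CPM. It fell from 520.3 ± 13.7 to 472.2 ± 16.7 CPM (SD, n = 3) in MI-spheres and from 584.1 ± 31.1 to 506.3 ± 20.1 CPM in MII-spheres, log2 fold-changes of -0.17 ± 0.049 and -0.23 ± 0.035 that both passed the test.

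CRABP2 rose from 153.2, 147.7 and 151.9 CPM to 237.2, 230.7 and 241.6 CPM in MI-spheres. In MII-spheres it rose from 58.4, 55.0 and 58.0 CPM to 78.4, 72.7 and 80.8 CPM. The log2 fold-changes were 0.62 ± 0.049 and 0.41 ± 0.055 (edgeR adjusted p = 9.32e-10 and 6.61e-09). On the TPM scale, which divides by gene length and by the sum of such levels over all genes, the mean of CRABP2 went from 250.3 to 349.1 in MI-spheres but from 150.6 to 148.0 in MII-spheres, so the rise in MII-spheres depends on the scaling. On that scale RDH10 went from 103.7 to 24.5 TPM in MI-spheres and only from 74.3 to 78.9 TPM in MII-spheres. DHRS3 went from 265.7 to 214.5 TPM in MI- and from 474.1 to 298.7 TPM in MII-spheres, a larger relative fall than in CPM. STRA6 went from 67.8 to 28.0 TPM, DHRS9 from 325.9 to 127.0 TPM and CYP26B1 from 7.85 to 3.44 TPM in MII-spheres. In MI-spheres they went from 19.0 to 5.19, from 57.8 to 19.3 and from 8.24 to 3.53 TPM. These falls were also larger than in CPM, more so in MII-spheres, so the gap between the lines depends on the scaling. The difference between the CRABP2 responses, -0.19 ± 0.071, had an edgeR adjusted p of 0.0440 that moved between 0.0107 and 0.195 over the alternatives. It lost its call without MI Ctrl replicate 2, MII Ctrl replicate 1 or 3, or MII TGFβ replicate 2.

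CYP26B1, the only one of the 3 CYP26 genes with enough counts to be tested, fell from 24.1, 20.1 and 22.4 CPM to 12.2, 10.6 and 9.25 CPM in MI-spheres. It fell from 13.1, 13.5 and 13.4 CPM to 8.81, 7.68 and 7.57 CPM in MII-spheres. Stimulated and unstimulated libraries did not overlap in either line. The log2 fold-changes were -1.10 ± 0.10 and -0.76 ± 0.11 (edgeR adjusted p = 1.47e-08 and 8.34e-08), and the interaction of 0.35 ± 0.15 was not called (95% confidence interval 0.04 to 0.66 before adjustment, edgeR adjusted p = 0.0992).

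Among the receptors, RARG fell in both lines. In MI-spheres it was at 125.6, 125.7 and 125.3 CPM without and at 102.2, 91.2 and 84.5 CPM with TGFβ. In MII-spheres the values were 121.3, 133.0 and 118.5 CPM and, with TGFβ, 103.6, 95.5 and 107.3 CPM. The groups did not overlap in either line. The log2 fold-changes were -0.47 ± 0.062 and -0.31 ± 0.046 (edgeR adjusted p = 1.73e-06 and 9.40e-08). RARA was called lower in MI-spheres, with a log2 fold-change of -0.39 ± 0.16 (edgeR adjusted p = 0.0435), and its groups overlapped. The call was lost without MI TGFβ replicate 3, MI Ctrl replicate 1 or MI Ctrl replicate 2, where the log2 fold-change was -0.24, -0.26 and -0.36 (edgeR adjusted p = 0.186, 0.27 and 0.141). In MII-spheres RARA had a log2 fold-change of -0.20 ± 0.10 and RARB one of -0.29 ± 0.27, neither called. RARA was called lower there with at least 10 counts in every library (-0.24, edgeR adjusted p = 0.0394) and with a gene-length correction (-0.23, edgeR adjusted p = 0.0457). RARB had -0.69 ± 0.31 in MI-spheres (edgeR adjusted p = 0.0637), which was called without MI TGFβ replicate 3 (-0.83) or MI Ctrl replicate 3 (-0.96). Over the 9 genes, 3 interactions were called higher and 1 lower, where 12.6% and 9.75% of all 18591 genes tested were. The DHRS3, RARA, RARB and RARG responses of the lines were not called different.

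**Figure D2:**
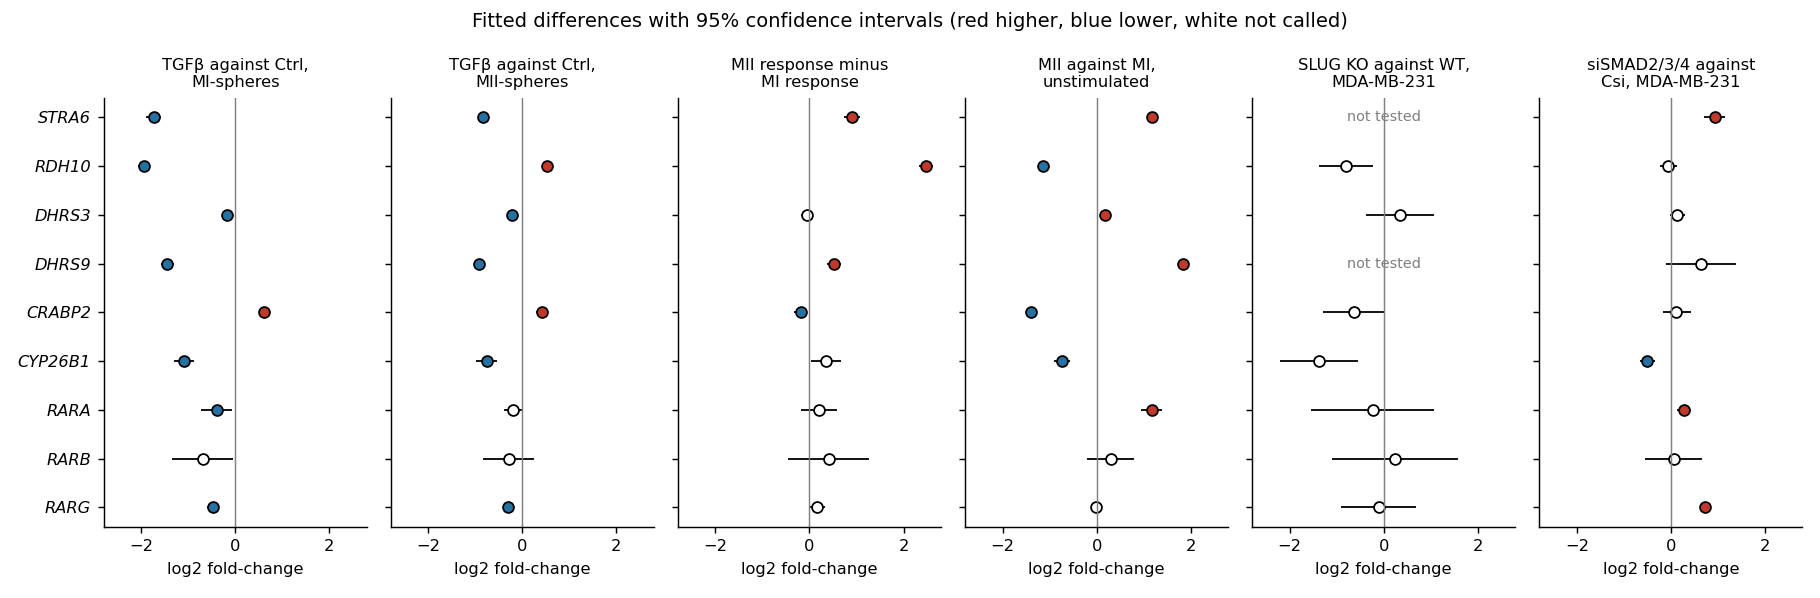
Log2 fold-change of each gene in 6 comparisons, with 95% confidence intervals from the fitted standard errors. Red points were called higher, blue points lower (adjusted p under 0.05) and white points were not called. RDH10 is at -1.94 in MI-spheres and at 0.52 in MII-spheres, and no gene was called in the SLUG KO comparison.

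Without TGFβ, MII-spheres differed from MI-spheres in 7 of the 9 genes. DHRS9, STRA6, RARA and DHRS3 were higher and CRABP2, RDH10 and CYP26B1 lower in MII-spheres, where 31.7% of all genes tested were called higher and 32.5% lower. These comparisons share their unstimulated libraries with the comparisons for TGFβ, so the values are set side by side only. Between MI Ctrl and MII Ctrl the basal sum was at least 1404.6 against at most 360.9 CPM. Most of it was the keratin KRT17, at 1280.2 against 330.8 CPM on average. KRT5 (106.5 against 18.9 CPM) and TP63 (51.1 against 0.622 CPM) were also lower in MII Ctrl, whereas KRT14 was higher (1.56 against 8.44 CPM). The luminal sum was at most 1274.5 against at least 2418.9 CPM and the endothelial sum at most 33.0 against at least 113.7 CPM. Within the endothelial list only PECAM1 was higher in MII Ctrl. CDH5 went the other way, at 21.4 CPM or more in MI Ctrl and at 11.4 CPM or less in MII Ctrl. The part of these lists in the differences between the lines was not tested. DHRS9 was higher by a log2 fold-change of 1.83 ± 0.037 (SE), a factor of 3.56, and STRA6 by 1.17 ± 0.042. CRABP2 was lower by a factor of 2.64 (log2 fold-change -1.40 ± 0.045) and RDH10 by a factor of 2.22 (-1.15 ± 0.038). CYP26B1 was lower with -0.73 ± 0.082, and DHRS3 higher with 0.17 ± 0.035. Of the receptors, RARA stood at 7.56, 6.73 and 5.13 CPM in MI Ctrl and at 13.7, 16.0 and 14 CPM in MII Ctrl. These groups did not overlap, and the log2 fold-change was 1.17 ± 0.11 (edgeR adjusted p = 1.26e-13). RARG had a log2 fold-change of -0.01 ± 0.041 with a 95% confidence interval of -0.09 to 0.08, and RARB 0.30 ± 0.25 with an interval of -0.21 to 0.80. In TPM, RARG had means of 43.9 in MI Ctrl and 69.2 in MII Ctrl and CYP26B1 of 8.24 and 7.85, so the near-equal RARG and the lower CYP26B1 levels hold for CPM with TMM and not for TPM. RDH10 had 103.7 and 74.3 TPM and CRABP2 250.3 and 150.6 TPM, smaller differences than in CPM. DHRS3 (265.7 and 474.1 TPM), STRA6 (19.0 and 67.8), DHRS9 (57.8 and 325.9) and RARA (2.47 and 8.75) had larger ones. The sizes of these differences therefore depend on the scaling.

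In MDA-MB-231 cells, siSMAD2/3/4 raised STRA6, RARG and RARA and lowered CYP26B1, with the other 5 genes not called. Among all genes tested, 16.3% were called higher and 19.7% lower. STRA6 was at 4.96, 6.00 and 5.08 CPM in Csi and at 10.8, 9.46 and 10.2 CPM in siSMAD2/3/4 libraries. The groups did not overlap, with a log2 fold-change of 0.93 ± 0.11 (edgeR adjusted p = 3.70e-08) at a level far below that of the spheres. RARG rose from 25.3, 25.5 and 28.0 CPM to 43.6, 44.3 and 43.1 CPM, a log2 fold-change of 0.73 ± 0.061 (edgeR adjusted p = 2.19e-11). CYP26B1 fell from 17.3, 16.4 and 17.2 CPM to 11.5, 12.8 and 11.7 CPM, a log2 fold-change of -0.50 ± 0.082 (edgeR adjusted p = 1.29e-05). RARA had a log2 fold-change of 0.28 ± 0.071 (edgeR adjusted p = 0.00180). With the flow cell as a term this became 0.12 (edgeR adjusted p = 0.392), and siSMAD2/3/4 replicate 3, on the flow cell of the Csi libraries, was the lowest of its group at 25.8 CPM against 30.1 and 30.9 CPM. STRA6, RARG and CYP26B1 kept their calls in that fit. RDH10 had a log2 fold-change of -0.05 with a 95% confidence interval of -0.24 to 0.14, and DHRS9 rested on 15 to 37 counts per library.

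In the SLUG KO comparison none of the 7 genes with enough counts was called, where 1.45% of all genes tested were called higher and 1.89% lower. DESeq2 called 1 of them, and 2 had an unadjusted p under 0.05, namely CYP26B1 and RDH10. CYP26B1 was at 9.02, 18.8 and 8.41 CPM in WT and at 5.0, 4.80 and 4.77 CPM in the libraries labelled SLUG KO. Every SLUG KO library was below every WT library, and the log2 fold-change of -1.38 ± 0.35 had an edgeR adjusted p of 0.0948. RDH10 was at 9.47, 6.36 and 8.45 CPM in WT and at 4.04, 5.80 and 4.64 CPM in SLUG KO, again without overlap, with a log2 fold-change of -0.80 ± 0.25 (edgeR adjusted p = 0.146). RARA was at 5.84, 23.2 and 6.08 CPM in WT and at 12.8, 7.84 and 10.8 CPM in SLUG KO. RARG was at 10.5, 23.4 and 11.4 CPM in WT and at 15.3, 12.6 and 15.9 CPM in SLUG KO. For both receptors, and for CYP26B1 and DHRS3, the high value of the WT group belonged to replicate 2, the library that correlated least with its replicates, and its RARB level of 0.159 CPM was the lowest of all 24 libraries. Without WT replicate 2, 5 of the 7 genes were called. RARA (log2 fold-change 0.79, edgeR adjusted p = 0.00297), DHRS3 (0.69, 0.0151) and RARG (0.39, 0.0297) were then higher in SLUG KO, the 2 receptors with the opposite sign to the fit of all 6 libraries, and CYP26B1 (-0.87, 0.000341) and RDH10 (-0.92, 0.000737) were lower. In that fit 3013 genes were called higher and 2579 lower over all genes, against 252 and 329 with all 6 libraries.

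**Figure D3:**
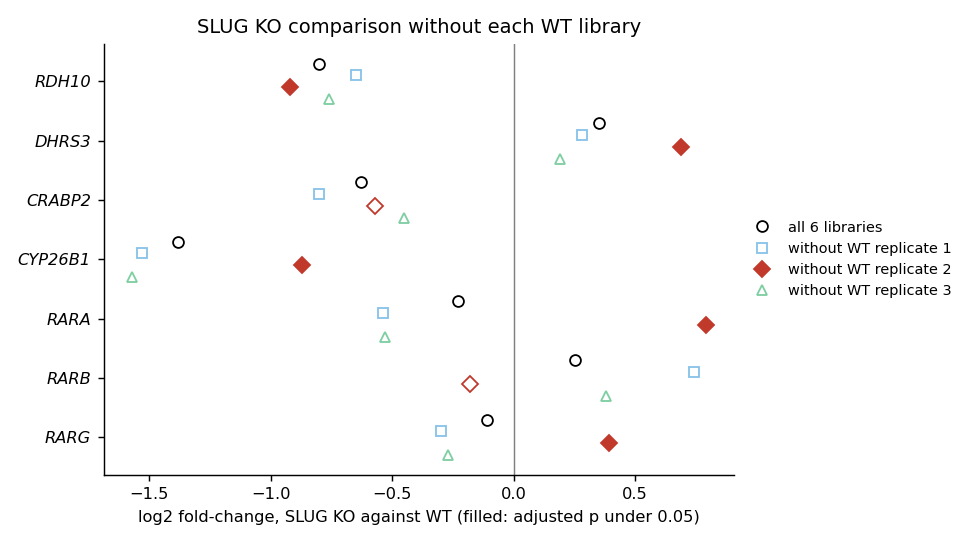
Log2 fold-change of the 7 tested genes in SLUG KO against WT with all 6 libraries (circles) and without each WT library in turn. Filled symbols have an adjusted p under 0.05. Filled symbols appear only without WT replicate 2, where RARA moves from -0.23 to 0.79 and RARG from -0.11 to 0.39.

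Per kilobase of exon, RARG was on average the largest part of the receptor RNA in all 8 groups. Its shares overlapped those of RARA in Csi and WT libraries, and were higher in spheres than in MDA-MB-231 cells. The full exon length was used for RARA, although fragments on its 21.4% of shared exon bases were left out. RARA per kilobase may therefore be too low, and its order with RARG in MDA-MB-231 cells is uncertain. RARG held 93.0% ± 1.63 (SD, n = 3) of the summed RARA, RARB and RARG level in MI Ctrl, 92.8% ± 0.15 in MI TGFβ, 86.8% ± 0.308 in MII Ctrl and 85.9% ± 1.35 in MII TGFβ. The RARA share ranged from 4.2% to 5.96% in MI Ctrl and from 10.6% to 11.3% in MII Ctrl, without overlap. The shares with and without TGFβ overlapped in both lines, while the summed level went from 26.3 ± 0.496 to 19.5 ± 1.91 CPM per kilobase in MI- and from 27.9 ± 1.65 to 23.2 ± 1.02 in MII-spheres. In Csi libraries RARA held 48.2% ± 0.923 and RARG 49.2% ± 0.888. In siSMAD2/3/4 libraries RARA held 40.9% ± 1.96 and RARG 57.2% ± 2.20, without overlap with Csi for either receptor. In WT libraries RARG held 55.4% ± 6.51 and RARA 40.4% ± 9.73, and in SLUG KO libraries RARG held 54.4% ± 2.84 and RARA 41.7% ± 4.11. RARB held between 1.65% and 4.27% on average in every group. Within a library such shares are the same for CPM per kilobase and for TPM, but levels between groups are not, and TPM moved all 72 group means per length by more than their SD. Among all 9 genes, DHRS3 had the highest level per kilobase in MI Ctrl (148.0 CPM per kilobase) and MII Ctrl (166.2), followed by CRABP2 (139.5) in MI and DHRS9 (114.3) in MII. In Csi libraries RARG (5.13), RARA (5.02) and CRABP2 (4.41) were highest.

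**Figure D4:**
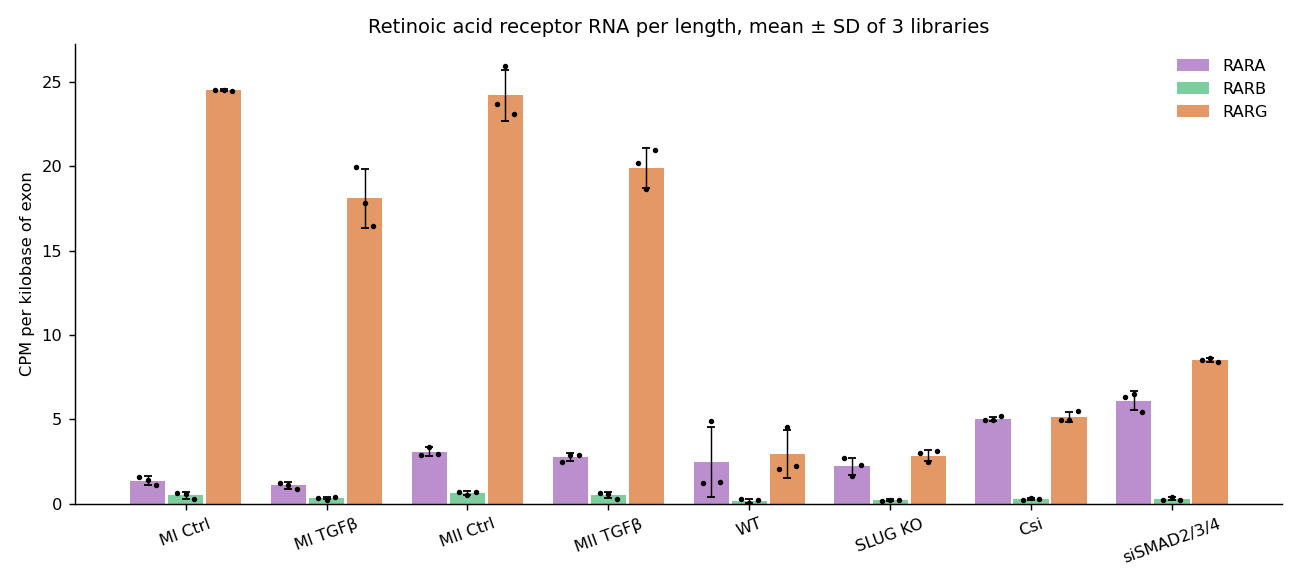
RARA, RARB and RARG in CPM per kilobase of exon by group. Bars are means from 0, error bars SD and dots the 3 libraries. RARG is the highest receptor in the 4 sphere groups, at 18.1 to 24.5 CPM per kilobase on average, and RARA nearly equals RARG in Csi libraries. RARA may be too low, since fragments on exon bases shared with antisense genes were left out.

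The other genes of the pathway were taken from a list of 44 by role. In MI-spheres 33 were tested, of which TGFβ raised 8 and lowered 15, and in MII-spheres 31 were tested, of which 6 rose and 11 fell. The shares over all genes were those given above, 28.7% higher and 27.4% lower in MI- and 29.9% and 27.6% in MII-spheres. Of the 4 enzymes making retinoic acid, ALDH1A3 had the most counts in spheres, where the others did not exceed 6.30 CPM. It fell from 853.6, 843.5 and 834.3 CPM to 247.4, 232.6 and 283.7 CPM in MI-spheres and from 1002.6, 1006.1 and 1012.5 CPM to 703.5, 699.6 and 703.8 CPM in MII-spheres. The log2 fold-changes were -1.76 ± 0.058 and -0.55 ± 0.032, and the responses differed by 1.22 ± 0.066 (edgeR adjusted p = 1.46e-17). ALDH1A1 was called higher in both lines at low levels, by 0.53 ± 0.20 and 1.62 ± 0.30, and ALDH1A2 was not called in MI-spheres and not tested in MII-spheres. ALDH1A1 lost its call in MI-spheres without MI TGFβ replicate 3 (0.29), MI Ctrl replicate 1 (0.36) or MI Ctrl replicate 2 (0.53).

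Of the carriers, FABP5, a fatty acid binding protein that can also carry retinoic acid, rose from 40.5, 40.7 and 43.7 CPM to 262.0, 231.6 and 248.8 CPM in MI-spheres. It was at 22.7 to 26.2 CPM in all 6 MII libraries. FABP5 has near-identical copies in the genome, so its counts are uncertain. The log2 fold-change was 2.54 ± 0.058 in MI- and -0.05 ± 0.076 in MII-spheres, and the difference was -2.58 ± 0.090 (edgeR adjusted p = 1.83e-23). CRABP1 had at most 1 count in any library and CYP26A1 at most 8, so neither was tested in spheres. RXRA and RXRB, the common partners of the RARs, were not called for TGFβ in either line, though RXRA was called higher in MI-spheres without MI TGFβ replicate 3 (0.17), with a replicate block (0.12), with a gene-length correction (0.18, also with the block) and in 1 fit of the 12 sphere libraries (0.14), and in MII-spheres with the gene-length correction (0.11, also with the block). RXRB was called lower in MII-spheres without MII Ctrl replicate 2 (-0.19). RXRG had at most 6 counts in any library. All 6 co-regulators were called lower in MI-spheres, with NCOA2 at -0.63 ± 0.052, and 4 of 6 in MII-spheres. Of the genes known to respond to retinoic acid, BHLHE40 rose in both lines (1.67 ± 0.064 and 0.83 ± 0.051) and PLAAT4 fell in MI-spheres (-1.35 ± 0.082). Among enzymes that convert retinol, retinal or their esters, RDH16 rose in MI-spheres (2.76 ± 0.22) and was not called in MII-spheres. RDH11 rose in both lines, by 0.49 ± 0.057 in MI- and 0.41 ± 0.045 in MII-spheres. LRAT rose by 0.47 ± 0.073 and 0.39 ± 0.049. In TPM, the MII-sphere means went from 51.7 to 51.0 for RDH11 and from 26.8 to 26.0 for LRAT. The rises of RDH11 and LRAT in MII-spheres therefore depend on the scaling. AKR1B10 fell in both lines, with -0.50 ± 0.076 in MI- and -1.07 ± 0.071 in MII-spheres.

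**Figure D5:**
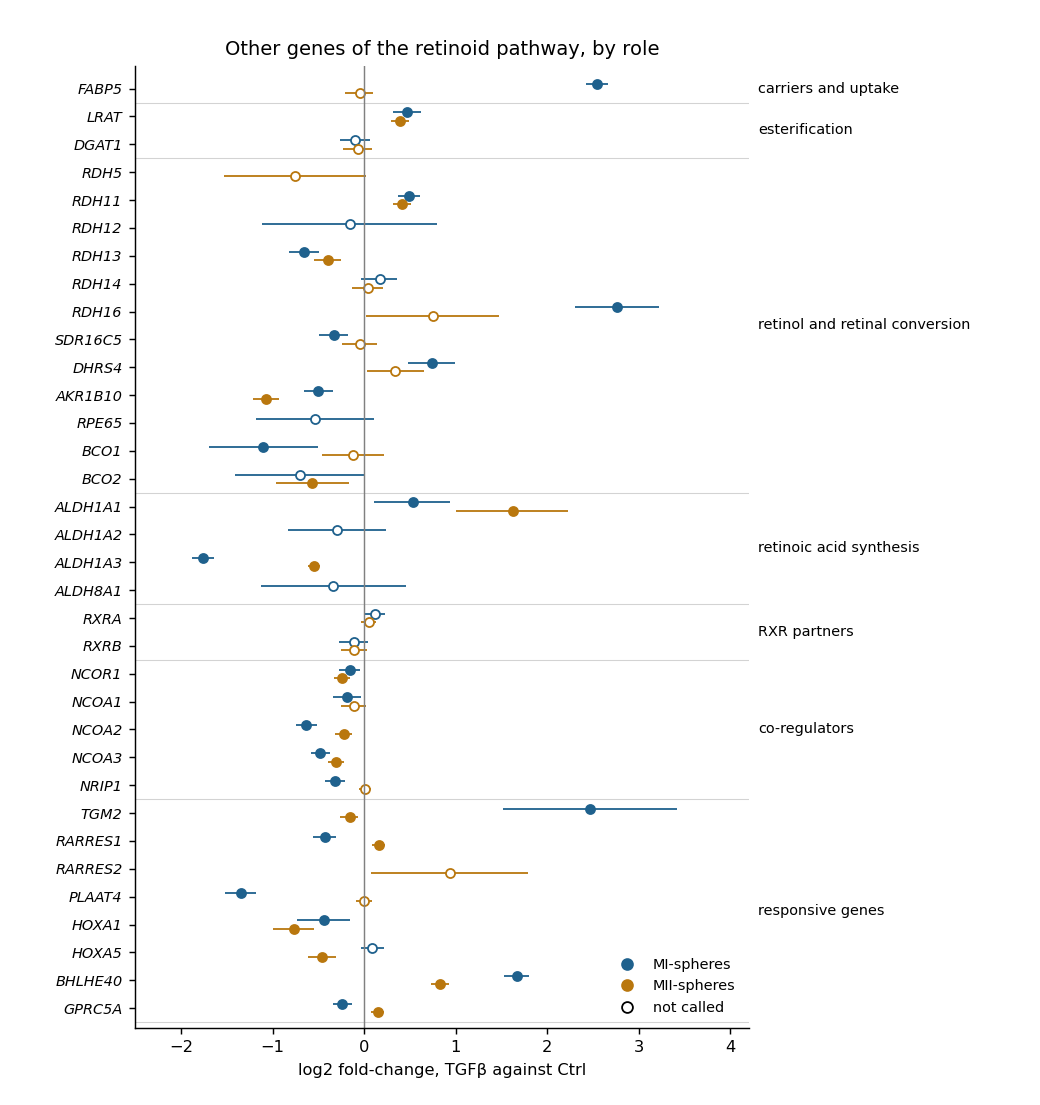
Log2 fold-change for TGFβ against Ctrl of listed pathway genes tested in MI- (blue) or MII-spheres (ochre), grouped by role, with 95% confidence intervals. Open points were not called. FABP5 is at 2.54 in MI- and at -0.05 in MII-spheres, and ALDH1A3 at -1.76 and -0.55.

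Between the unstimulated lines, 15 of 33 listed genes tested were higher and 12 lower in MII-spheres, beside 31.7% and 32.5% of all genes. TGM2, a transglutaminase induced by retinoic acid in many cells, went from 0.0519 to 0.424 CPM in MI Ctrl to 104.8 to 115.2 CPM in MII Ctrl libraries, and LRAT was higher by 1.67 ± 0.059. RXRA was higher by 0.30 ± 0.039 and RXRB was not called. ALDH1A3 was higher by 0.26 ± 0.033, whereas ALDH1A1 (-1.94 ± 0.28), ALDH1A2 (-3.37 ± 0.44), FABP5 (-0.75 ± 0.064), NCOA3 (-1.29 ± 0.039) and HOXA5 (-1.15 ± 0.058) were lower. In siSMAD2/3/4 against Csi libraries 10 of 31 listed genes were higher and 4 lower, beside 16.3% and 19.7% of all genes. AKR1B10 rose by 1.22 ± 0.064, ALDH1A3 by 0.73 ± 0.11 and GPRC5A by 0.36 ± 0.038, and TGM2 (-0.30 ± 0.038), BHLHE40 (-0.41 ± 0.041) and FABP5 (-0.43 ± 0.094) fell. With the flow cell as a term FABP5 was not called (-0.36, edgeR adjusted p = 0.0506). ALDH1A1, ALDH1A2, RXRA and RXRB were not called there. In the SLUG KO comparison 1 of 27 listed genes was higher, RARRES2 at 176.1, 137.7 and 146.9 CPM against 25.7, 45.0 and 36.4 CPM in WT (2.05 ± 0.25), and 1 was lower, SDR16C5 at 0, 0 and 0.136 CPM against 4.04, 1.79 and 5.25 CPM in WT. ALDH1A2, ALDH1A3, FABP5, RXRA and RXRB were not called in that comparison. ALDH1A3 was at 5.77, 5.52 and 6.71 CPM in WT and at 11.2, 10.3 and 13.5 CPM in SLUG KO, without overlap. Its log2 fold-change was 0.91 ± 0.20 (edgeR adjusted p = 0.0572). DESeq2 (0.92), the fit without WT replicate 2 (0.88) and 1 fit of the 18 libraries of spheres, WT and SLUG KO (0.91) called it higher. The fit of 18 libraries called RXRA (-0.67) and RXRB (-0.50) lower, RXRB also without WT replicate 2 (-0.26). Without WT replicate 2, 9 listed genes were called higher and 5 lower, and without SLUG KO replicate 1 none was called in either direction.

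The genes whose levels over the 18 libraries of spheres, WT and SLUG KO were most like a member's were found among 13636 protein-coding genes by Pearson's r of log2 (CPM + 2). These libraries fall into spheres and MDA-MB-231 cells, so r mostly follows that split for the genes that differ between them, and no p is given. STRA6 was most like CORO2A (r = 0.996) and TTC6 (0.995), RDH10 like BMPR1B (0.993) and GRAMD2A (0.990), and DHRS3 like PROM2 (0.998) and SPINT1 (0.997). DHRS9 was most like KRT23 (0.998) and SRGAP3 (0.996), CRABP2 like DSC3 (0.997) and ABCA12 (0.996), and RARG like SCNN1A (0.996) and ITPKC (0.994). CYP26B1 was most like SH3D21 (0.981) and ZZEF1 (0.944), RARA like STARD3 (0.957) and SEZ6L2 (0.953), and RARB like TSTD3 (0.901) and DMXL2 (0.892). Between members, r was highest for STRA6 and DHRS9 (0.998) and lowest for CRABP2 and RARA (-0.325).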

How the data were processed

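RNA-seq of 24 libraries in 8 groups was used, and the 16 ATAC-seq samples of the series were not used here. The authors depleted ribosomal RNA, trimmed with Trimmomatic and aligned with STAR (GRCh38), and fragments on GENCODE 38 exons were counted by featureCounts 2.0.0 (mapping quality at least 30, both ends mapped, strand ignored, fragments on several genes not counted). The deposited values are raw counts for 60708 genes per library, without normalization.

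Symbols were matched by Ensembl ID. Members and gene lists were chosen with earlier results of these data known. For a comparison only its 6 libraries entered the fit (12 for the interaction), made with edgeR 4.0.16 in R 4.3.3: filterByExpr, TMM, quasi-likelihood test, Benjamini-Hochberg adjustment over all genes tested. Levels are CPM with TMM factors over 24 libraries. Named are all members, the targeted genes, ALDH1A1, ALDH1A2, ALDH1A3, CYP26A1, CRABP1, FABP5, RXRA, RXRB, RXRG, in a comparison the 3 listed genes per direction that had the lowest adjusted p, and the 2 genes most like each member. Alternatives were DESeq2 1.42.0, its size factors in edgeR, other low-count filters, a gene-length correction, a replicate block, larger fits, flow cell as a term and leaving out each library. Some genes the rule names are not reported here. The fits were tested on simulated data with known changes. Intervals for a count of 0 cover counting error only.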

Additional observations from a re-analysis of the deposited data

Results flagged for a closer look

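The response to TGFβ differed between MI- and MII-spheres in the following genes, by the interaction of line and TGFβ in edgeR's quasi-likelihood test. Each value is the log2 fold-change in MII- minus that in MI-spheres. Of the 9 retinoid genes, RDH10 had 2.47 (edgeR adjusted p = 1.24e-25), lower in 3 of 3 stimulated MI libraries and higher in 3 of 3 stimulated MII libraries. STRA6 had 0.90 (edgeR adjusted p = 3.97e-11) and DHRS9 0.53 (edgeR adjusted p = 5.33e-07), both with a larger fall in MI-spheres. CRABP2 had -0.19 (edgeR adjusted p = 0.0440).

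Of the other pathway genes, ALDH1A3 had 1.22 (edgeR adjusted p = 1.46e-17), PLAAT4 1.35 (edgeR adjusted p = 7.47e-15), ALDH1A1 1.09 (edgeR adjusted p = 0.0317) and RARRES1 0.60 (edgeR adjusted p = 5.50e-09). FABP5 had -2.58 (edgeR adjusted p = 1.83e-23), BHLHE40 -0.82 (edgeR adjusted p = 1.95e-10) and TGM2 -2.62 (edgeR adjusted p = 1.75e-07), the last with 1 to 11 counts in unstimulated MI-spheres.

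ALDH1A1 lost this call without any 1 of 7 of the 12 libraries, with values down to 0.79 without MII Ctrl replicate 1, and CRABP2 without any 1 of 4.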

How the results depend on the processing

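Of the 772 values of single retinoid genes recomputed under the alternatives, 746 kept their direction and side of the threshold, 13 gained a call, 11 lost one and 2 reversed. Both reversals came without WT replicate 2, where SLUG KO against WT gave 0.79 for RARA and 0.39 for RARG, against lows of -0.54 and -0.30 with other libraries left out. In that comparison members called lower numbered 1 with DESeq2 (CYP26B1), 1 with no low-count filter and 4 with all 18 libraries of the batch in 1 fit, against 0. Listed pathway genes called higher numbered 2 with DESeq2 and 6 with the 18 libraries, against 1, and those called lower 2 with no filter, 0 with at least 10 counts in every library and 5 with the 18 libraries, against 1. Leaving out 1 library gave 0 to 3 members higher, 0 to 2 lower, 0 to 9 listed genes higher and 0 to 5 lower. For siSMAD2/3/4 it gave 6 to 10 listed genes higher, and with the flow cell as a term 2 were lower against 4. The count of members with a lower interaction, 1 (CRABP2), became 0 with no filter and 0 with a gene-length correction, and ranged from 0 to 1 with a library left out. The gene-length correction called 10 listed genes higher in MII-spheres against 6. RARA in MI-spheres was not called by DESeq2 (-0.38, adjusted p = 0.0874). The cause of these changes was not tested. Replicate numbers do not pair the libraries, with correlations of same-numbered deviations from -0.185 to 0.0517. A replicate block left members called in MI-spheres at 1 higher and 7 lower and listed genes called higher at 9 against 8. It changed no count of members in any comparison. Without a low-count filter the median of all genes moved to -0.246 in MII-spheres. Low counts limit STRA6 and DHRS9 in WT and SLUG KO libraries and RARB in all groups.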

Other observations

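The WT and Csi groups are both MDA-MB-231 cells without a targeted gene, from different batches, and several retinoid genes stood far apart between them. ALDH1A1 was at 0, 0 and 0.0395 CPM in WT and at 63.8, 67.0 and 64.7 CPM in Csi libraries. AKR1B10 was at 1.05, 0.437 and 0.908 CPM in WT and at 21.7, 22.4 and 25.9 CPM in Csi. STRA6 was at 0.15, 0.199 and 0.118 CPM in WT and at 4.96, 6.00 and 5.08 CPM in Csi. For RARA (23.2 CPM against 23.4 to 24.5 CPM) and CYP26B1 (18.8 CPM against 16.4 to 17.3 CPM), WT replicate 2 was close to the Csi libraries and the other 2 WT libraries were not, whereas its ALDH1A1, AKR1B10 and STRA6 levels were those of the other WT libraries. Batch, transfection and cell stock cannot be told apart here, and no test was made. These genes were chosen after their values were seen.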
